A study of Mus musculus with 12 samples.

Results

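Mast cell genes of epididymal white adipose tissue (eWAT) were examined in mice on a normal or a high-fat diet. The set held 7 genes, Cpa3, Mcpt4, Cma1, Tpsb2, Kit, Ms4a2 and Hdc. They were chosen by name as markers of mast cells, with earlier results of these data known. All 7 were found among the 22947 genes to which the deposited transcripts were summed. A gene was tested when its FPKM (the number of sequenced fragments scaled to transcript length and library size) was at least 1 in at least 3 libraries. Of the 7 genes, 6 passed this filter, among 12775 genes that passed in all, and Ms4a2 did not.

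The study asked how chrysanthemum leaf ethanol extract (CLE) and the flavonoid luteolin (LU) change gene expression in the fat of mice with diet-induced obesity. All mice were male C57BL/6J, 21 weeks old after 16 weeks of diet, and 3 mice of each of 4 groups were sequenced, which the methods describe as representative samples of their group. The ND group ate a normal diet, the HFD group a high-fat diet, the CLE group the high-fat diet with 1.5% (w/w) CLE and the LU group the high-fat diet with 0.003% (w/w) LU. Whole tissue was extracted, and FPKM is scaled to library size. A lower value of a mast cell gene in these bulk samples can therefore mean fewer mast cells, less of that RNA in each cell or more RNA from other cells. These cannot be told apart.

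Mast cells are long-lived tissue cells that mature in place from blood-borne progenitors. They survive on stem cell factor, which binds the receptor tyrosine kinase KIT, and they fill their secretory granules with histamine and with proteases bound to heparin. When antigen crosslinks IgE on the high-affinity IgE receptor, the granules are released. In mice, mast cells of connective tissue carry Mcpt4, Cma1, Tpsb2 and Cpa3, while mast cells of mucosae carry Mcpt1 and Mcpt2. Adipose tissue holds mast cells along its vessels and between adipocytes.

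Some facts of the libraries bear on all values. Median-ratio size factors of the libraries ran from 0.967 to 1.03. Read counts are not given, and the depth is therefore unknown. A letter R stands in 4 of the labels, those of LU mouse 2, CLE mouse 4 and ND mice 4 and 3. It stands in no HFD label, so HFD could not be compared with the other groups within that letter. Keratin and other skin genes set 2 libraries apart: the summed FPKM of 5 skin epithelium genes was 111.0 in HFD mouse 12 and 138.7 in CLE mouse 11, against 0.449 to 2.06 in the other 10 libraries. HFD mouse 12 also had the highest level of every granule protease member, and CLE mouse 11 the lowest of its group. The members' tests against HFD and the counts of the pathway list are therefore given with and without these 2 libraries, and other values with them except where stated. The part of skin tissue in them was not tested.

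The granule proteases rose together on the HFD, and the sequence before each transcription start is shown for 3 of the 4, beside that of Kit, which went the opposite way. Each line is the 250 bases before the start in RefSeq (GRCm38.p6), 5′ to 3′ on the strand of the gene. Of the 7 genes, 6 matched the RefSeq table, and Tpsb2 did not. Capitals mark GATA with A or T before it and A or G after it, on either strand. These 4 words are bound by GATA factors, of which GATA2 is needed for mast cell development.
Cpa3, chr3:20242182-20242431, minus strand: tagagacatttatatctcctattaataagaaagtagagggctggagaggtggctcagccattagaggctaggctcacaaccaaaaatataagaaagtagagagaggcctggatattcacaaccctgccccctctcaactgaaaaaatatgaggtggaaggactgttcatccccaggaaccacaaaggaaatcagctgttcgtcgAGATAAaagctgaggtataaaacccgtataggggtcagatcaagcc
Mcpt4, chr14:56062311-56062560, minus strand: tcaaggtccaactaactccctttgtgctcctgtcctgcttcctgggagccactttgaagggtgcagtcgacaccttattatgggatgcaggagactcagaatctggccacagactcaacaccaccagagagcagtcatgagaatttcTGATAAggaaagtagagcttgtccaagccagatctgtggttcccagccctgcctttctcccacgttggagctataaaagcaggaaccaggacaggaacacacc
Cma1, chr14:55944676-55944925, minus strand: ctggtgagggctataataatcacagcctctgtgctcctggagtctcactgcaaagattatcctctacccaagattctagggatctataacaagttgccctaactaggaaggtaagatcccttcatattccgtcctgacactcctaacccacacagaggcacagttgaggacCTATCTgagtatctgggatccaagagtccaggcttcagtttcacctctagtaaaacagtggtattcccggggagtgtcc
Kit, chr5:75574737-75574986, plus strand: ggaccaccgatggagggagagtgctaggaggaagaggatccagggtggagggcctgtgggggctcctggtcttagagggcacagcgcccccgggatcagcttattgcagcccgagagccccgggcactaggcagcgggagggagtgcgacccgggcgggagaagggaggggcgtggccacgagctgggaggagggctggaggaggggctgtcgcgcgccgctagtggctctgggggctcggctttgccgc
Cpa3 held 1 such word, 46 bases before the start, Mcpt4 held 1 at 103 bases and Cma1 held 1 at 79 bases, on the opposite strand. The Kit window held 0. Among all 32851 RefSeq windows of this length, 26.5% held at least 1 of the 4 words. Outside the 4 windows shown, Ms4a2, which was not tested, held 3 words. Hdc, whose mean was lower in HFD than in ND without being called, held 1. The word CATGTG, which MITF binds, was on either strand in 0 of the 6 genes matched and in 12.3% of all windows. A match of letters is a description and not a binding site.

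Cpa3 encodes carboxypeptidase A3, a metalloprotease of mast cell granules (ENSMUSG00000001865, chromosome 3, 20215620 to 20242181, minus strand, GRCm38). Its FPKM was 0.281, 1.00 and 0.245 in the ND mice, 3.26, 1.50 and 1.42 in the HFD mice, 0.504, 0.674 and 0.175 in the CLE mice and 0.953, 0.546 and 0.0781 in the LU mice. Each HFD library was above all 9 others. The means were 0.510 ± 0.428 in ND, 2.06 ± 1.04 in HFD, 0.451 ± 0.253 in CLE and 0.526 ± 0.438 in LU (SD, n = 3). Only 4 libraries reached 1 FPKM, the 3 HFD libraries and ND mouse 3, so Cpa3 passed the filter through the group in which it was high. The table also holds 8 assembled transcripts that overlap Cpa3 on the opposite strand, and the kit as described does not mark strand. With these added, the level was 1.895 to 3.73 FPKM in ND, 2.78 to 4.53 in HFD, 0.884 to 0.967 in CLE and 0.169 to 2.12 in LU, so ND and HFD then overlapped.

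Mcpt4 encodes a chymase, a protease of chymotrypsin-like specificity that is stored with heparin (ENSMUSG00000061068, chromosome 14, 56059629 to 56062313, minus strand). Its FPKM was 1.42, 1.41 and 1.19 in ND, 4.79, 3.95 and 2.87 in HFD, 0.920, 1.26 and 0.304 in CLE and 1.72, 0.850 and 0.443 in LU. The ND mice lay close together, and the HFD mice were all higher than any other mouse. CLE mice 2 and 11 and LU mice 3 and 8 were below every ND mouse.

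Cma1 encodes the alpha-chymase of the mouse and lies on the same chromosome as Mcpt4 (ENSMUSG00000022225, chromosome 14, 55941451 to 55944675, minus strand). Its FPKM was 1.44, 1.81 and 0.951 in ND, 5.15, 4.27 and 2.12 in HFD, 1.20, 1.28 and 0.767 in CLE and 1.82, 1.24 and 0.651 in LU. Each HFD mouse was above the 9 others, and HFD mouse 18 came closest to them.

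Tpsb2 encodes a tryptase, a trypsin-like protease that forms tetramers on heparin (ENSMUSG00000033825, chromosome 17, 25366305 to 25369098, plus strand). Its FPKM was 1.84, 1.47 and 1.22 in ND, 5.25, 4.12 and 2.53 in HFD, 1.16, 2.12 and 0.604 in CLE and 1.91, 1.56 and 0.617 in LU. Again no HFD mouse overlapped another group, and HFD mouse 18 and CLE mouse 4 came closest.

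**Figure D1:**
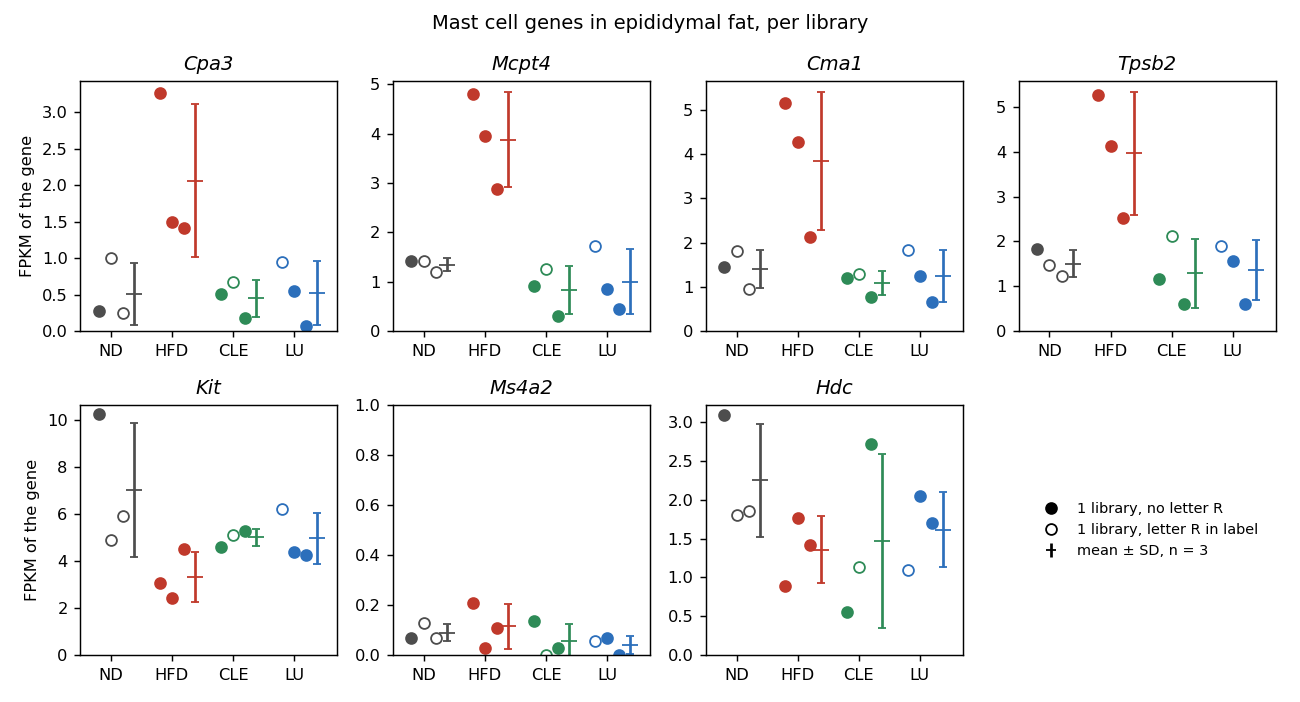
FPKM of the 7 mast cell genes (vertical axes, each from 0) by diet group (horizontal axes). Each point is 1 library, open where the label carries the letter R, and the bars are the mean ± SD of 3 mice. Cpa3, Mcpt4, Cma1 and Tpsb2 are highest in the 3 HFD libraries, Kit is lower in these than in the 3 ND libraries, and Ms4a2 is at most 0.206 in any library.

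All 4 granule proteases were higher in HFD than in ND mice, Cpa3 by its annotated transcript alone. On the log2(FPKM + 1) scale of the limma test, on which changes of weakly expressed genes look smaller than they are, Mcpt4 rose by 1.04 (SE 0.24, Benjamini-Hochberg adjusted p = 0.0041) and Cpa3 by 1.00 (SE 0.27, adjusted p = 0.010). Cma1 rose by 0.97 (SE 0.25, adjusted p = 0.0080) and Tpsb2 by 0.95 (SE 0.28, adjusted p = 0.014). With every gene above 0 tested, Cpa3 was still called (adjusted p = 0.025). With its opposite-strand transcripts added, an alternative chosen after seeing the data, it was not called (log2 difference 0.30, SE 0.30, adjusted p = 0.43), and its mean in HFD was 1.31 times that in ND. In mean FPKM of the annotated transcripts, the levels in HFD were 4.04 times those in ND for Cpa3, 2.88 times for Mcpt4, 2.74 times for Cma1 and 2.63 times for Tpsb2.

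A gene was called where its fold change was over 1.5 and its adjusted p under 0.05, which these 4 met, as did 14.9% of all tested genes in this direction. In all 4 the groups did not overlap, which held for 30.2% of all tested genes in this direction. The exact permutation test of each gene gave p = 0.1, the smallest that 3 against 3 allows. Without the 2 libraries with skin genes, the 4 were still called, with log2 fold changes of 0.74 to 0.90 (adjusted p 0.011 to 0.042). Without HFD mouse 12 alone, Tpsb2 fell short (log2 fold change 0.77, adjusted p = 0.062). Without the libraries of letter R, which leaves ND with 1 mouse, Cma1 (log2 fold change 0.93, adjusted p = 0.084) and Tpsb2 (0.77, adjusted p = 0.14) fell short.

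The receptor moved in the opposite direction. Kit encodes the stem cell factor receptor, which mast cells share with melanocytes, haematopoietic progenitors and some other cells (ENSMUSG00000005672, chromosome 5, 75574916 to 75656722, plus strand). Its FPKM was 10.2, 4.88 and 5.90 in ND, 3.04, 2.40 and 4.50 in HFD, 4.60, 5.12 and 5.27 in CLE and 6.21, 4.39 and 4.26 in LU. All HFD mice were below all ND mice, while ND mouse 2 stood far above the others of its group. Kit fell by 0.86 on the log2 scale in HFD against ND (limma, SE 0.23, adjusted p = 0.0091), among the 10.8% of tested genes called lower. The groups of 29.3% of all tested genes did not overlap in that direction. Without ND mouse 2, Kit was still called. It was also called without the 2 libraries with skin genes (log2 difference -0.83, SE 0.28, adjusted p = 0.040).

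Per transcript length, Kit had the highest FPKM of the 7 genes in 10 of the 12 libraries. The exceptions were HFD mouse 12, in which all 4 granule proteases were above it, and HFD mouse 15, in which Mcpt4, Cma1 and Tpsb2 were.

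Hdc encodes histidine decarboxylase, the enzyme that makes histamine (ENSMUSG00000027360, chromosome 2, 126593667 to 126619299, minus strand). Its FPKM was 3.09, 1.80 and 1.86 in ND, 0.895, 1.76 and 1.42 in HFD, 0.556, 1.13 and 2.72 in CLE and 1.09, 2.05 and 1.70 in LU. In summed level, the HFD mice lay below the ND mice, by a narrow gap between HFD mouse 15 and ND mouse 3. Of the level in ND mouse 3, 0.936 FPKM came from the transcript ENSMUST00000148591, which was at or near 0 in all other libraries. In ENSMUST00000028838, the transcript of the highest mean, the groups overlapped (1.46, 0.621 and 0.774 in ND, 0.323, 0.900 and 0.732 in HFD). For the summed level, the difference in log2(FPKM + 1) was -0.46 (limma, SE 0.28, adjusted p = 0.20) and was not called. It was -0.31 (SE 0.22, adjusted p = 0.28) without the 2 libraries with skin genes. The highest CLE value was in mouse 11, in which the 4 granule proteases were lowest of the CLE mice. Of this value, 1.47 FPKM came from the transcript ENSMUST00000132382.

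Ms4a2 encodes the beta subunit of the high-affinity IgE receptor (ENSMUSG00000024680, chromosome 19, 11615523 to 11623719, minus strand). It was at 0.0685 to 0.127 FPKM in ND, 0.0264 to 0.206 in HFD, 0 to 0.134 in CLE and 0 to 0.0659 in LU, with 2 libraries listed at 0. It was not tested. Thus of the 6 members tested in HFD against ND, 4 rose, 1 fell and 1 was not called, and their median log2 fold change was 0.96 against -0.02 over all tested genes.

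**Figure D2:**
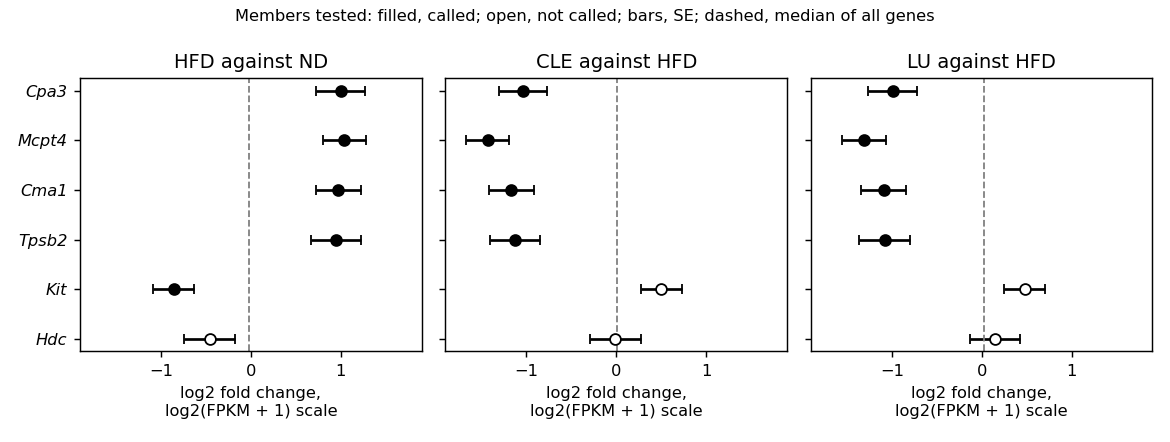
Log2 fold change on the log2(FPKM + 1) scale (horizontal axes) of the 6 members tested, for HFD against ND, CLE against HFD and LU against HFD. Bars are the SE, filled points were called, and the dashed line is the median of all tested genes. The 4 granule proteases lie near 1 in the first panel and between -1.43 and -0.99 in the others, with Kit on the other side of the line in each.

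All 4 granule proteases were lower in CLE than in HFD mice. Mcpt4 fell by 1.43 on the log2 scale (limma, SE 0.24, adjusted p = 0.0010), Cma1 by 1.17 (SE 0.25, adjusted p = 0.0046), Tpsb2 by 1.13 (SE 0.28, adjusted p = 0.0093) and Cpa3 by 1.04 (SE 0.27, adjusted p = 0.013). In mean FPKM, the HFD level was 4.68 times the CLE level for Mcpt4, 4.57 times for Cpa3, 3.55 times for Cma1 and 3.06 times for Tpsb2. Every CLE mouse was below every HFD mouse for these 4 genes. The median over the 6 members tested was -1.08, against 0.01 over all tested genes. Of all tested genes, 10.1% were called lower, and 26.2% did not overlap in that direction.

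This comparison depends on the 2 libraries with skin genes, which were the extremes of both groups. Without HFD mouse 12 and CLE mouse 11, only Mcpt4 was still called (log2 fold change -1.07, adjusted p = 0.012). The others were then at -0.63 (Cpa3, adjusted p = 0.13), -0.85 (Cma1, adjusted p = 0.057) and -0.71 (Tpsb2, adjusted p = 0.10), each with 2 mice a group. Of the 12775 tested genes, 1369 were called lower in this fit, against 1296 with all 12 libraries. Without CLE mouse 11 alone all 4 were called, and without HFD mouse 12 alone Cpa3 was not (adjusted p = 0.054). Cpa3 was called with every gene above 0 tested (adjusted p = 0.032) and with its opposite-strand transcripts added (log2 fold change -1.21, adjusted p = 0.0097).

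Kit was higher in all CLE mice than in any HFD mouse, as were 24.4% of all tested genes. The gap was narrow, between CLE mouse 2 (4.60 FPKM) and HFD mouse 18 (4.50 FPKM). The log2 difference of 0.50 did not pass the test (limma, SE 0.23, 95% interval -0.01 to 1.01, adjusted p = 0.12), while 6.33% of all tested genes were called higher. The log2 difference of Hdc was -0.01 (95% interval -0.63 to 0.60, adjusted p = 0.98). This value depended on the 2 libraries with skin genes. Without them Hdc was at -0.51 (SE 0.24, adjusted p = 0.15) and Kit at 0.44 (SE 0.31, adjusted p = 0.34), neither called.

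In LU mice, the same 4 genes were lower than in the same 3 HFD mice. Mcpt4 fell by 1.31 on the log2 scale (limma, SE 0.24, adjusted p = 0.0027), Cma1 by 1.09 (SE 0.25, adjusted p = 0.0091), Tpsb2 by 1.08 (SE 0.28, adjusted p = 0.015) and Cpa3 by 0.99 (SE 0.27, adjusted p = 0.020). The HFD mean was 3.92 times the LU mean in FPKM for Cpa3, 3.85 times for Mcpt4, 3.11 times for Cma1 and 2.91 times for Tpsb2. All 4 had no overlap between the groups. The median over the 6 members tested was -1.04, against 0.03 over all tested genes. In this comparison 7.64% of all tested genes were called lower and 22.1% did not overlap in that direction.

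Single libraries decided part of these calls. Without HFD mouse 12, Cpa3 (adjusted p = 0.083) and Tpsb2 (adjusted p = 0.066) were no longer called, and without LU mouse 8 they were again the 2 that fell short (adjusted p = 0.071 and 0.053). Cpa3 was also not called without LU mouse 3 (adjusted p = 0.050). Without HFD mouse 12 and CLE mouse 11 together, 3 of the 4 were called, all but Cpa3 (adjusted p = 0.078). Mcpt4 and Cma1 were called in each of these fits. With every gene above 0 tested, Cpa3 was called (adjusted p = 0.047), as it was with its opposite-strand transcripts added (log2 fold change -1.11, adjusted p = 0.019). With a pseudocount of 0.1 Cpa3 was not called (adjusted p = 0.050), and without its assembled transcript Tpsb2 was not (log2 fold change -0.85, adjusted p = 0.071).

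Kit in LU overlapped HFD through HFD mouse 18 (log2 difference 0.48, SE 0.23, 95% interval -0.03 to 0.99, adjusted p = 0.15). Of all tested genes, 4.81% were called higher in LU and 25.6% did not overlap in that direction. Hdc differed by 0.15 on the log2 scale (95% interval -0.47 to 0.77, adjusted p = 0.73). Kit was at 0.44 (SE 0.28, adjusted p = 0.31) without the 2 libraries with skin genes. CLE and LU were both compared with the same 3 HFD mice, so the 2 sets of values are not independent.

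Neither supplement left a member called against ND. In CLE against ND, 0 of 6 members were called, beside 2.91% of all tested genes. The log2 differences were -0.47 (Hdc) to -0.04 (Cpa3), with the lowest adjusted p at 0.35 (limma). Without the 2 libraries with skin genes, Hdc was at -0.81 (SE 0.22, adjusted p = 0.11) and the others at -0.39 (Kit) to 0.11 (Cpa3). In that fit 29 of the 12775 tested genes were called. With its opposite-strand transcripts added, Cpa3 was at -0.91 (SE 0.30, adjusted p = 0.097), and every CLE mouse was below every ND mouse. In LU against ND, 0 of 6 were called, beside 6.59% of all genes. The differences were -0.39 (Kit) to 0.01 (Cpa3), with the lowest adjusted p at 0.31. With its opposite-strand transcripts added, Cpa3 was at -0.80 (SE 0.30, adjusted p = 0.11). Without these changes, the 95% intervals over the members reached from -1.09 to 0.56 for CLE and from -0.93 to 0.61 for LU. This does not show that the levels were equal.

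CLE and LU were also compared directly, as extract against single compound given at different doses. Of the 6 members 0 were called, as 0.00783% of all tested genes were, with log2 differences of -0.16 (Hdc) to 0.02 (Kit) and 95% intervals within -0.78 and 0.56. By mean level, the order for Mcpt4, Cma1 and Tpsb2 was HFD, ND, LU and CLE, and for Cpa3 it was HFD, LU, ND and CLE, and 0 of these genes were called between ND, CLE and LU. For Kit the order was ND, CLE, LU and HFD.

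The 4 granule proteases followed each other from mouse to mouse. Over the 12 libraries, Pearson's r of log2(FPKM + 1) was 0.91 to 0.96 for the 6 pairs, and for the deviations from the group means it was 0.74 to 0.93. The points share their libraries and their groups, so these are descriptions. HFD mouse 12 was highest and HFD mouse 18 lowest of its group for all 4, CLE mouse 4 was highest and CLE mouse 11 lowest, and LU mouse 2 was highest and LU mouse 8 lowest. ND mouse 4 was lowest of its group for all 4. CLE mouse 4 and LU mouse 2 are libraries of letter R, and the part of that letter in their levels was not tested beyond the fits with and without them.

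Kit did not follow the proteases. Its r with them was -0.58 to -0.46 over the 12 libraries and -0.19 to 0.08 for the deviations from the group means. For Hdc, r with the proteases was -0.47 to -0.31 and -0.60 to -0.37 for the deviations.

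By Pearson's r with the mean z score of the 6 tested members over the 12 libraries, the 5 genes most like them were Fgl2 (0.915), Ces2g (0.898), Gxylt1 (0.889), Cd14 (0.88) and Lin54 (0.874). Fgl2 encodes a fibrinogen-like protein of the immune response and Cd14 a co-receptor for lipopolysaccharide. Only 1 of these 5 was among the 5 by Spearman's rho, and 0 by r of the deviations from group means. With the score of the 4 granule proteases, chosen after the values were seen, they were Lgi2 (0.955), Ces2g (0.953), Exoc3 (0.941), Arih1 (0.939) and Timp2 (0.936). Mean FPKM of Timp2, an inhibitor of matrix metalloproteinases, was 105.7 in ND, 204.5 in HFD, 106.5 in CLE and 126.5 in LU.

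The levels rested on few transcripts for the proteases. Cpa3, Mcpt4 and Cma1 each rested on 1 annotated transcript, and 16.8% of the Tpsb2 total came from an assembled transcript. Kit rested on 11 transcripts, of which ENSMUST00000144270 held 38.9%, and 26.8% of its total came from assembled ones. Hdc rested on 9, of which ENSMUST00000028838 held 46.3%, and 18.5% of its total came from assembled transcripts of class j. The members belong to families with close copies, so words of 100 bases, the read length, were compared with all other GENCODE transcripts. The words of Cpa3, Cma1, Tpsb2, Kit and Hdc, from the transcript of the highest mean of each, occurred in no other gene, and 0.0991% of those of Mcpt4 (in Cma2) and 0.567% of those of Ms4a2 (in Ms4a4b) did.

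Beyond the 7 members, 50 other genes of the mast cell pathway were listed, also with earlier results of these data known, and 36 of them were tested. Among these, 17 rose and 4 fell in HFD against ND (limma, median log2 fold change 0.47), beside 14.9% and 10.8% of all tested genes. In CLE against HFD, 15 fell and 1 rose (median -0.38), beside 10.1% and 6.33%. In LU against HFD, 13 fell and 1 rose (median -0.33), beside 7.64% and 4.81%. Without the 2 libraries with skin genes, 17 rose and 3 fell in HFD against ND, 15 fell and 2 rose in CLE against HFD, and 12 fell and 1 rose in LU against HFD. The medians over all tested genes were -0.02, 0.01 and 0.03.

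The other granule proteases were absent or nearly so. Mcpt1 and Mcpt2 of mucosal mast cells, and Mcpt9, were listed at 0 in all 12 libraries. Tpsab1, the neighbour of Tpsb2 in the tryptase family, was at 0 to 0.177 FPKM, and no library reached 1 FPKM of Tpsg1 or Ctsg. Mcpt8 and Prss34, proteases of basophils, were under 1 FPKM in all libraries, with Mcpt8 above 0 in LU mouse 3 alone (0.0729). Of the proteases named at the outset for each site, those of connective tissue (Mcpt4, Cma1, Tpsb2 and Cpa3) were present, and those of mucosae (Mcpt1 and Mcpt2) were listed at 0.

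The receptors most particular to mast cells were also low. Fcer1a, the IgE-binding subunit, was at 0 to 0.373 FPKM, and Mrgprb2, the receptor for cationic secretagogues, at 0 to 0.296. Il1rl1, the receptor for interleukin 33, had a mean of 1.96 FPKM in ND and 4.01 in HFD and rose by 0.76 on the log2 scale (limma, adjusted p = 0.00032). Kitl, the ligand of KIT, was at 24.7 to 31.2 FPKM in ND and 23.8 to 26.3 in HFD (log2 difference -0.12, adjusted p = 0.41).

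Several listed genes that macrophages also express were called. Fcer1g, the signalling subunit of the IgE receptor and of Fc receptors on macrophages, rose by 2.23 on the log2 scale in HFD against ND (adjusted p = 1.9e-06) and fell by 1.61 in CLE and by 1.08 in LU against HFD. Of 13 genes of IgE receptor signalling tested, 9 rose and 1 fell in HFD, where 14.9% of all tested genes were called higher and 10.8% lower. The rise was 3.86 for Lat2, 2.55 for Vav1, 2.37 for Inpp5d, 2.24 for Btk, 2.22 for Syk, 1.70 for Lcp2, 1.69 for Plcg2, 1.12 for Lyn and 0.67 for Grap2, and Plcg1 fell by 0.59. Lat, the adaptor of T cells and mast cells, was not called (0.18, adjusted p = 0.46).

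Hpgds, which makes prostaglandin D2 in mast cells and also in macrophages, rose by 3.19, from 1.96 to 26.3 mean FPKM, and Alox5ap, the partner of 5-lipoxygenase, rose by 1.73. Cd200r1, an inhibitory receptor of myeloid cells, rose by 3.21. The exocytosis genes Stxbp2 and Unc13d rose by 1.01 and 0.99, while Rab27a, Rab27b and Vamp8 were not called. Srgn, the proteoglycan core on which granule proteases are stored, differed by 0.38 (adjusted p = 0.045), under the fold threshold, and Ndst2, which sulfates its heparin chains, by 0.32 (adjusted p = 0.037).

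No histamine gene that was tested was called higher in HFD. Slc18a2, which loads histamine into granules, was at 0.608 to 0.745 FPKM in ND and 0.456 to 0.551 in HFD. It was at 0.217 to 0.541 in CLE and 0.374 to 0.505 in LU, and it was not tested. Hnmt, which methylates and inactivates histamine, fell by 0.99 (adjusted p = 0.00016), from 31.0 to 14.9 mean FPKM. The histamine receptors Hrh1 (0.667 to 1.07 FPKM in ND, 1.08 to 1.50 in HFD) and Hrh2 were not called (adjusted p = 0.17 and 0.098), and Hrh3 and Hrh4 were under 1 FPKM.

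The transcription factors were split. Gata2, which mast cells, other progenitors and adipocyte precursors use, fell by 0.93 in HFD against ND (limma, adjusted p = 0.00092), rose by 1.01 in CLE (adjusted p = 0.0010) and by 0.92 in LU (adjusted p = 0.0028) against HFD. Mitf, active in mast cells, melanocytes and macrophages, rose by 1.18 in HFD (adjusted p = 8.1e-05) and fell by 0.96 in CLE and by 1.07 in LU. Tal1 fell by 0.64 in HFD (adjusted p = 0.0036), and Stat5a and Stat5b were not called. Gata2 and Kit thus both fell where the granule proteases rose.

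**Figure D3:**
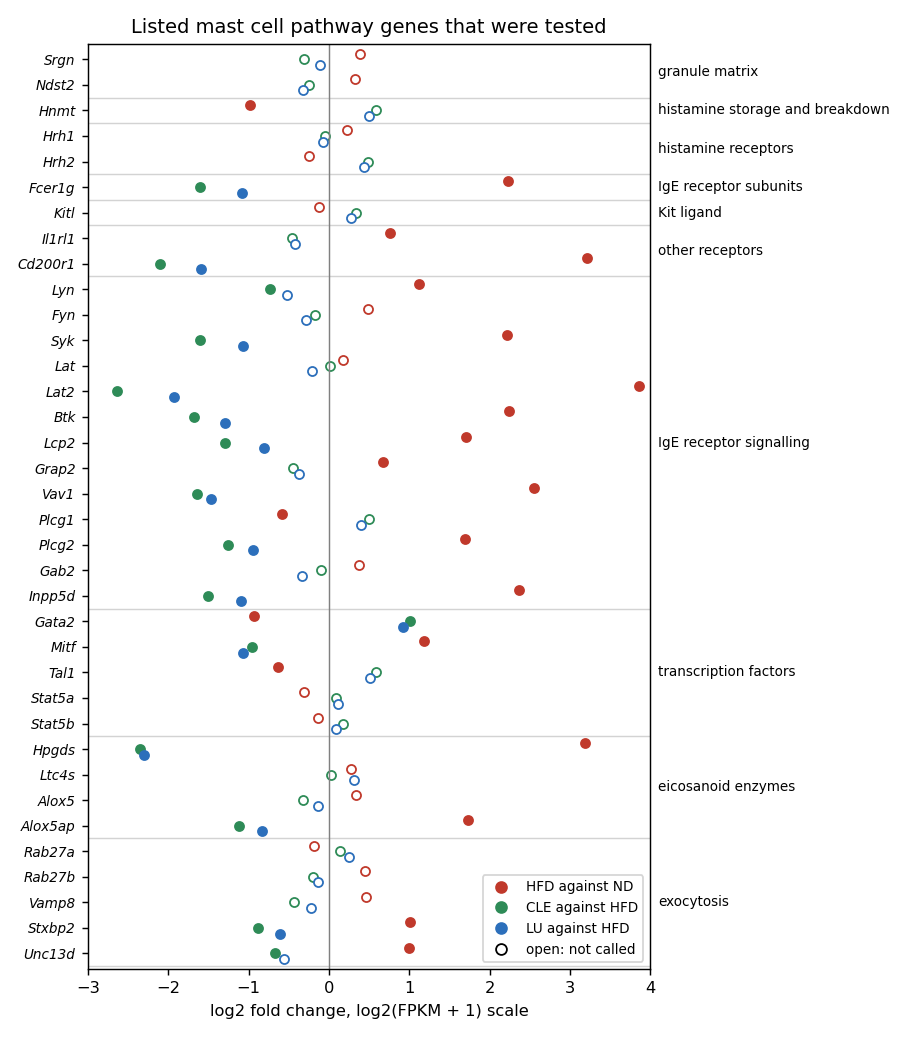
Log2 fold change on the log2(FPKM + 1) scale (horizontal axis) of the 36 tested genes of the mast cell pathway list, grouped by role, in the 3 main comparisons. Filled points were called. Genes of IgE receptor signalling such as Lat2, Vav1 and Syk are far to the right in HFD against ND and to the left in CLE and LU against HFD, and Gata2 shows the reverse.

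Markers of other cells moved with these results. Of 10 macrophage genes, 8 rose in HFD against ND and 8 fell in CLE and in LU against HFD, also without the 2 libraries with skin genes. Of all tested genes, 14.9% were called higher in HFD, 10.1% lower in CLE and 7.64% lower in LU. Their summed FPKM was 347.2 to 517.1 in ND, 2865 to 3343 in HFD, 613.9 to 1043 in CLE and 977.3 to 1197 in LU. The summed FPKM of the 4 granule proteases was 3.61 to 5.70 in ND, 8.94 to 18.5 in HFD, 1.85 to 5.34 in CLE and 1.79 to 6.40 in LU. The macrophage sums of all CLE and LU mice were thus above those of all ND mice. The protease sums of CLE mouse 11 (1.85), a library with skin genes, and of LU mouse 8 (1.79) were below all ND mice, and those of the other CLE and LU mice were not. The part of macrophages in the change of the shared genes was not tested.

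**Figure D4:**
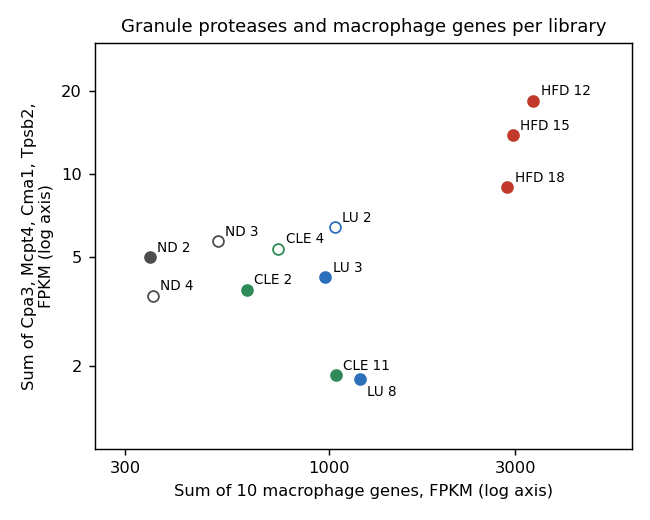
Summed FPKM of Cpa3, Mcpt4, Cma1 and Tpsb2 (vertical log axis) against that of 10 macrophage genes (horizontal log axis). Each point is 1 library, labelled by group and mouse and open where the label carries the letter R. The 3 HFD libraries are alone at the upper right, and CLE mouse 11, a library with skin genes, and LU mouse 8 are lowest on the vertical axis. The macrophage sums of all CLE and LU libraries exceed those of the ND libraries.

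For the lists of other cells, the shares of all tested genes are again the measure. In HFD against ND, 14.9% were called higher and 10.8% lower. The shares higher and lower were 6.33% and 10.1% in CLE and 4.81% and 7.64% in LU, both against HFD. For basophils, 4 of 5 markers were under 1 FPKM in all libraries, and for eosinophils 5 of 6 were, with Ear2 called higher in HFD. For melanocytes, which also express Kit, 4 of 5 markers were under 1 FPKM in all libraries, and their summed FPKM was 0.913 to 2.18 in ND and 1.06 to 1.32 in HFD. For endothelium, 1 of 5 markers fell in HFD against ND, the endomucin gene Emcn, while 3 rose in CLE (Tie1, Emcn and Kdr) and 4 in LU (these and Cdh5) against HFD. Without the 2 libraries with skin genes, 0 were called in each of these contrasts. Their sum was 208.5 to 340.0 FPKM in ND, 163.4 to 277.8 in HFD, 259.9 to 385.1 in CLE and 299.7 to 357.1 in LU. Of 6 neutrophil markers, 4 were under 1 FPKM throughout, and S100a8 was called higher and S100a9 lower in HFD against ND. Without the 2 libraries with skin genes, S100a8 was still called and S100a9 was not. The neutrophil sum was 6.16 to 14.8 FPKM in ND and 70.2 to 119.3 in HFD. Of 5 mesothelium markers, 4 fell in HFD against ND (Krt19, Upk3b, Lrrn4 and Msln, median of the list -1.58), and Lrrn4 rose in CLE and in LU against HFD. Of 6 adipocyte genes, 5 fell in HFD against ND and Lep rose. In CLE against HFD the same 5 rose (3 without the 2 libraries with skin genes) and Lep fell, and in LU 2 rose (Adipoq and Fabp4) and Lep fell. Their sum was 26024 to 27555 FPKM in ND, 15637 to 17608 in HFD, 23178 to 24937 in CLE and 21697 to 26732 in LU. The part of these cells in the levels of Kit and Gata2 was not tested.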

How the data were processed

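Libraries were paired-end reads of 100 bases, and the authors made the FPKM values with Cuffdiff. Per the labels' processing notes, the tools were CASAVA 1.8.2, Bowtie2 2.2.3, TopHat2 2.0.12 and Cufflinks 2.2.1. The genome build is not given in the sources used here. The deposited table held FPKM for 152210 transcripts in 15 columns. Of these, 3 columns matched no sample and were not used, and columns of the authors' own calls between groups were not used. The header MD4 was taken as ND mouse 4 by inference, because the header of the authors' comparison of ND and HFD lists it with the other ND columns. Mouse numbers and groups came from the labels.

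Annotated transcripts, and assembled ones of class code = or j, were summed per gene, and positions came from GENCODE M21, in which 77000 of 78786 known identifiers were found. Values were tested as log2(FPKM + 1) with limma 3.58.1 (R 4.3.3). The fit held all 12 libraries and no covariate, and p-values were adjusted by Benjamini-Hochberg within each of 6 contrasts. A call needed a fold change over 1.5 and an adjusted p under 0.05. The authors' test on read counts (DEGseq) needs counts and was not run. Single genes were given a two-sided exact permutation test over mice. The script was tested on simulated data.

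The members and gene lists were chosen with earlier results of these data known. Named were the 7 members, the pathway genes called in HFD against ND or sharing a role or family with a member, and the 5 genes most like the members. Alternatives tried were no filter, a pseudocount of 0.1, median-ratio or quantile scaling, only the groups compared, the letter R as a covariate or left out, other choices of transcripts, the adjusted p alone, the replicate block and each library left out. Leaving out the 2 libraries with skin genes, and adding the opposite-strand transcripts of Cpa3, were chosen after seeing the data. Python 3.11.15, pandas 2.3.3, numpy 2.4.6, scipy 1.17.1 and matplotlib 3.10.9 were used.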

Additional observations from a re-analysis of the deposited data

How the results depend on the processing

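The number of members called stayed within 1.5 times its value under the alternatives run, with these exceptions. In HFD against ND, 5 were called, and 3 without the libraries of letter R, which leaves ND with 1 mouse whose spread is assumed to be that of the other groups. In CLE against HFD, 4 were called, and 1 without the 2 libraries with skin genes. Leaving out each library in turn gave 4 to 5 calls in HFD against ND, 3 to 4 in CLE against HFD and 2 to 4 in LU against HFD. The 2 calls in LU against HFD came without HFD mouse 12 and without LU mouse 8. In the contrasts of CLE or LU with ND and of CLE with LU, 0 members were called in every alternative.

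Over the 6 tested members and the 3 contrasts with HFD, 387 of the alternative values kept direction and call, 17 kept direction but lost the call and 10 changed sign. The sign changes were all of Hdc. In CLE against HFD, Hdc was at 0.04 after quantile normalization, 0.12 with the letter R as a covariate, 0.05 without the libraries of that letter and 0.11 without assembled transcripts of class j, and -0.36 to 0.27 with single libraries left out. Its lowest value in this contrast, -0.51, came without the 2 libraries with skin genes. In LU against HFD it was at 0.0 without the 2 libraries with skin genes, and 0.0 to 0.30 with single libraries left out. The cause was not tested.

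CLE and LU each share 2 mouse numbers with ND. Same-numbered mice did not deviate together (r -0.0989 and -0.00187 for CLE and ND, 0.0969 and 0.189 for LU and ND), and with the mouse number as a replicate block 0 members were called in both contrasts. HFD shares no number with another group. The FPKM carry no depth, so no counting error can be given for members near 1 FPKM.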

Other observations

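The 8 assembled transcripts on the strand opposite to Cpa3, left out of its level, extend past the end of Cpa3. Their summed FPKM was 1.65 to 2.72 in ND, 1.27 to 1.84 in HFD, 0.258 to 0.791 in CLE and 0.0912 to 1.58 in LU. In ND they thus lay above the annotated transcript, which reached 1.00 FPKM at most, and their highest group was ND where that of the annotated transcript was HFD. In the part where both overlap, unspliced reads of the 2 strands cannot be told apart, since the kit as described does not mark strand.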
